A study of Mus musculus with 14 samples.

Results

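Oxidative phosphorylation is the route by which mitochondria turn the electrons of food molecules into ATP. Complex I takes electrons from NADH and complex II from succinate, complex III passes them to cytochrome c, and complex IV hands them to oxygen. Complexes I, III and IV pump protons across the inner mitochondrial membrane, and complex V, the ATP synthase, makes ATP as protons flow back. Most subunits are encoded in the nucleus, and some have a second form restricted to muscle, lung or testis. Germ cells of the embryo divide fast and carry few mitochondria when they are set aside, and they gain many as they settle in the gonad.

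The genes described here are the nuclear subunits of these complexes, taken by symbol: every gene whose platform symbol begins with Nduf (complex I and its assembly factors), Uqcr (complex III), Cox4i, Cox5, Cox6, Cox7 or Cox8 (complex IV) or Atp5 (complex V), and Sdha, Sdhb, Sdhc and Sdhd (complex II). They came to 90 of 18194 genes: 36 subunits and 8 assembly factors of complex I, 4 subunits of complex II, 8 of complex III, 17 of complex IV and 17 of complex V. Each gene was read from 1 probe set, the brightest over all arrays among those that list a single gene. All 90 matched a RefSeq gene.

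Expression was measured on 14 Affymetrix arrays of mouse primordial germ cells, from which oocytes and spermatozoa later form, with 2 arrays in each of 7 groups: embryonic day (E) 9.5, E10.5, E11.5, E12.5 females, E12.5 males, E13.5 females and E13.5 males. The E10.5 to E13.5 cells came from BDF1 females mated to transgenic males with stella-EGFP on a mixed B6 and CBA background, and were sorted by EGFP after genital ridges had been treated with trypsin; the strain label is not given for replicate 1 of the E12.5 females and males. The E9.5 cells were from C57BL/6 embryos of an earlier study, for which no sort is described in the sources used here. Cells before E12.5 were not separated by sex, so a comparison across E11.5 and E12.5 also sets mixed embryos against 1 sex. Each cDNA was made from 5 ng of RNA, about 500 cells by the labels, and amplified with 12 PCR cycles, or 22 for E9.5, whose RNA was also isolated with another kit. Age, strain, kit, cycles and the mix of cells cannot be told apart in the comparison of E10.5 with E9.5.

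Values are log2 signals, so a difference of 1 is a 2-fold difference of signal. The median of the table was 4.72, and a level at or below it is called dim. Replicate arrays correlated over all genes with r between 0.961 and 0.981, with the E10.5 pair the lowest, and the number of arrays limits the precision. Of 11 listed germ cell markers 10 or 11 lay above the table median on every array, and Dppa3, the stella gene itself, read from 13.09 to 13.76. Of 19 markers of gonadal and mesonephric somatic cells 7 to 13 lay above it. The sum of the log2 signals of 8 blood markers ran from 28.57 to 62.44 and was highest at E9.5. At E9.5, E10.5, E13.5 females and E13.5 males the blood marker Hba-x had means of 12.34, 9.38, 4.385 and 4.42. Those of the somatic marker Col3a1 were 9.805, 9.04, 5.515 and 6.49. Those of the muscle and heart marker Actc1 were 9.14, 8.01, 3.625 and 3.52. Others changed less, such as Myh7 of muscle and heart (4.91, 4.945, 4.355 and 4.415). Some listed markers rose from E10.5, such as somatic Wnt4 in females (6.555, 6.18, 7.37 and 6.41) and somatic Gata4 in males (4.825, 5.095, 5.055 and 6.02). The part of other cell types in changes from E10.5 was not tested. The Y-linked gene Eif2s3y read 5.93 on replicate 1 of the E13.5 females, between the other female arrays (1.61 to 2.58) and the male arrays (10.67 to 11.53), while Y-linked Kdm5d read 1.44 there. Without this array none of the 90 genes passed in E13.5 females against E10.5; its part in those calls beyond this was not tested. In bulk cells a lower signal can mean less RNA per cell or fewer cells with that RNA, which cannot be told apart.

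Of the 90 genes, 87 had a mean above the table median. The 5 of highest mean signal were Atp5b (13.53), the catalytic beta subunit of ATP synthase, Uqcrb (13.39), a small subunit of complex III, Cox4i1 (13.30), the common form of Cox4, Atp5g3 (13.28), which encodes the proton-carrying ring protein, and Atp5c1 (13.24), the central stalk. The 5 of lowest mean signal were Cox6a2 (2.79) and Cox8b (4.28), forms typical of heart and muscle, Ndufb4 (3.67), a complex I subunit, Ndufa4l2 (4.85), a relative of Ndufa4 known from low oxygen, and Cox4i2 (6.23), a form typical of lung. The 3 dim genes were Cox6a2, Cox8b and Ndufb4, and the brighter probe sets of Ndufb4 name several genes and are given with the other observations. Signals of different probe sets are not transcript amounts, so these levels do not order the genes by abundance. The highest value of an array lay between 13.79 and 14.04.

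Over the 11 comparisons and 90 genes, 990 tests in all, 6 passed an adjusted p under 0.05 (limma, p-values adjusted over all 18194 genes). All 6 were rises from E10.5 to E13.5, with 5 in females and 1 in males. Where the largest difference of a comparison is named, it is the largest among genes above the table median in the higher group, which leaves out the dim gene Cox6a2, whose differences ran from -2.29 to 1.29. The same list had a much larger difference inside 1 group. On replicate 2 of the E10.5 cells most of the genes read below every other array. This array decided the median change of the list in every comparison that uses E10.5. The fit estimates 1 spread per gene over all its groups, so this difference also enters standard errors of comparisons without E10.5. A count of 0 there is therefore no measure of stability. The samples are labelled as biological replicates, and the p-values measure the spread between such pairs.

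**Figure D1:**
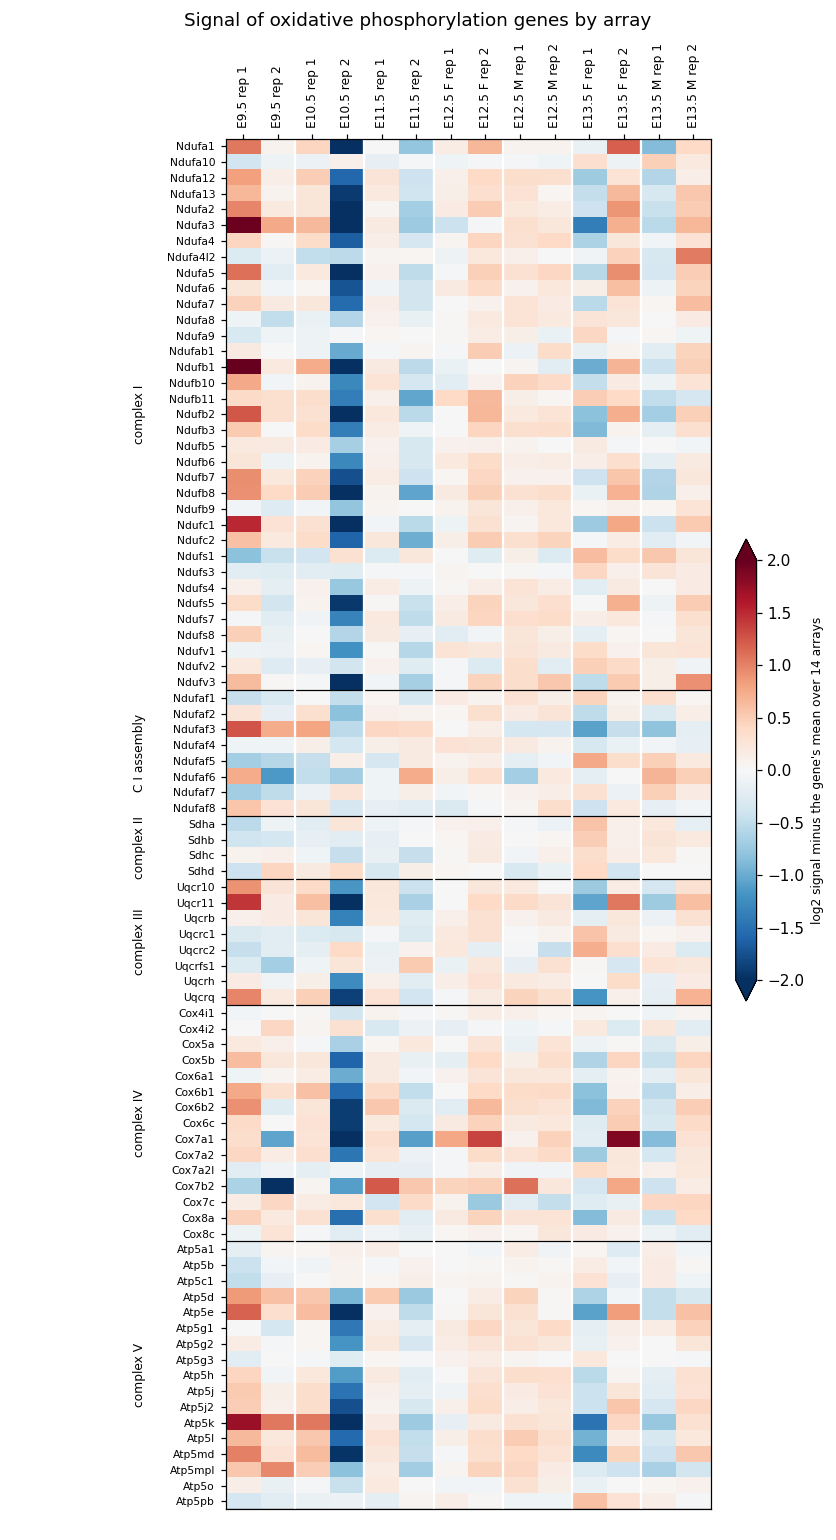
Each row is 1 of the 87 genes with a mean above the table median, grouped by complex, and each column is 1 array (F, female; M, male). Colour gives the log2 signal minus that gene's mean over the 14 arrays. The column of E10.5 replicate 2 is blue for most rows of complexes I, III, IV and V, while the rows of Sdha, Sdhd, Ndufs1, Uqcrc2, Atp5a1, Atp5b and Atp5c1 are not.

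Replicate 2 of E10.5 held the lowest of the 14 values for 64 of the 90 genes (71.1%), against 14.2% of all genes, 59.2% of cytosolic ribosomal protein genes and 47.4% of mitochondrial ones. The median of the 90 genes was 10.625 on that array and between 11.365 and 12.09 on the other 13. The median difference between the E10.5 arrays, replicate 2 minus replicate 1, was -1.25 over the 90 genes and -0.07 over all genes. At least 1 lower were 50 of the 90 (55.6%), against 12.9% of all genes, and at least 2 lower were 25, against 2.89%. Atp5k, which encodes a small membrane subunit that helps ATP synthase form dimers, had the largest gap, 11.88 against 8.50, a difference of -3.38. Uqcr11, a small subunit of complex III, followed at 11.50 against 8.18, and Ndufa3, an accessory subunit of complex I, at 10.64 against 7.61.

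The median gap was -1.73 for complex I subunits, -1.47 for complex III, -1.33 for complex V and -1.13 for complex IV, but 0.07 for the 4 genes of complex II and -0.47 for the 8 assembly factors of complex I. In complex I, 23 of 36 subunits were at least 1 lower, in complex III 5 of 8, in complex IV 9 of 17, in complex V 11 of 17, and in complex II none of 4. A hand-picked part of the core subunits, 11 genes (Ndufs1, Ndufs3, Ndufs7, Ndufs8, Ndufv1, Ndufv2, Sdha, Sdhb, Uqcrfs1, Atp5a1 and Atp5b), had a median gap of -0.02. It was chosen after the values were seen and does not hold whole arms of the complexes, so this describes the choice. Ndufs7 and Ndufv1, which hold an iron-sulphur cluster and the NADH site, were the 2 of these 11 that were at least 1 lower, at 11.93 against 10.66 and 11.98 against 10.74.

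Genes outside the list give the setting of this array. Cytosolic ribosomal protein genes had a median gap of -0.70 over 49 genes, and mitochondrial ribosomal protein genes -0.52 over 76. The tricarboxylic acid cycle, which feeds electrons to the chain, had -0.12 over 15 genes. Among the 2870 genes with a mean of at least 10, the median gap was -0.09 and 12.0% were at least 1 lower. The array held 11 of 11 germ cell markers above the table median, 6 of 8 blood markers and 12 of 19 somatic markers. Its median over the 11 germ cell markers was 10.81, the lowest of all arrays, against 11.36 to 12.25 on the others. Its median over all genes, 6.18, was also the lowest, against 6.25 to 6.58. Its Gapdh 3' probe set exceeded the 5' one by 1.38, against 0.44 on replicate 1 and 0.21 to 3.16 over all arrays. For Actb the difference was 2.97, against 2.7 on replicate 1 and 2.18 to 3.39 over all arrays. The part of sample make-up or RNA state in the gap was not tested.

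**Figure D2:**
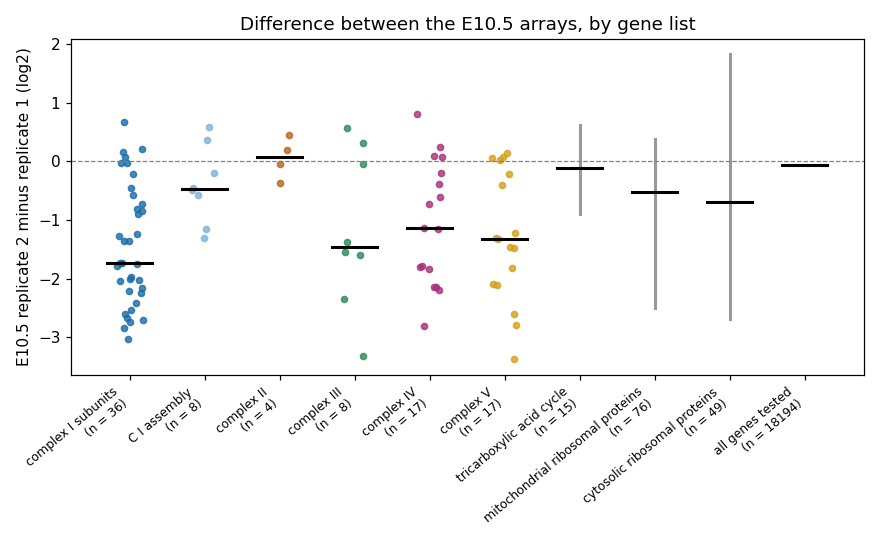
Points are single oxidative phosphorylation genes, by complex, and their height is the log2 signal of E10.5 replicate 2 minus that of replicate 1. Black bars are medians, and grey lines span the lowest to the highest gene of 3 other lists. The median is -1.73 for complex I subunits and 0.07 for complex II, and -0.07 for all genes (bar only).

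The same genes also set replicates apart in other groups. Over the 87 genes above the table median, the difference between replicates at E10.5 correlated with that at E11.5 (r = 0.81) and at E9.5 (r = 0.70). It ran against the difference at E13.5, where replicate 1 was the lower array (r = -0.90 in females, r = -0.87 in males), and less so in E12.5 females (r = -0.65). It had no linear relation to that of E12.5 males (r = -0.01). E13.5 females and males had the same pattern (r = 0.91), against 0.19 over all genes. These correlations are across genes of single pairs of arrays, and the genes share their arrays, so they carry no p-value. The median of replicate 2 minus replicate 1 was -0.29 at E9.5, -0.34 at E11.5, 0.21 and -0.01 in E12.5 females and males, and 0.38 and 0.34 at E13.5. In E13.5 females Uqcr11 read 9.84 and 11.95, Ndufa3 8.60 and 10.70 and Atp5k 9.34 and 11.24, the order opposite to that at E10.5. The Gapdh difference was highest on replicate 2 at E13.5 (3.09 in females, 3.16 in males), and its part in the pattern was not tested.

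**Figure D3:**
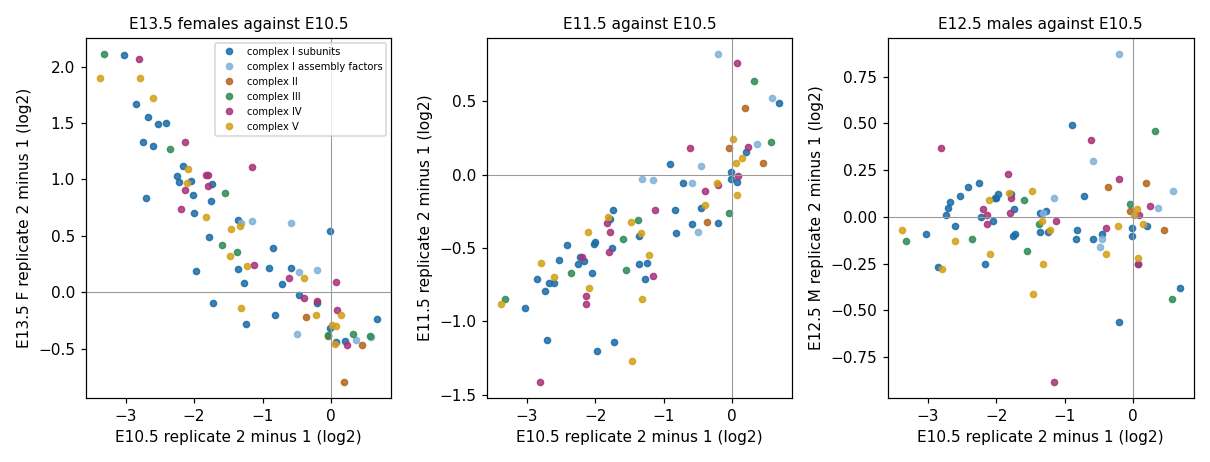
Each point is 1 of 87 genes, coloured by complex. The horizontal axis is the log2 difference between the E10.5 arrays, and the vertical axis the difference between the replicates of E13.5 females, E11.5 or E12.5 males. Points fall along a descending line for E13.5 females (r = -0.90) and a rising one for E11.5 (r = 0.81), and spread without a line for E12.5 males (r = -0.01).

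In complex III, Uqcrc1, a core protein of the complex that faces the matrix, rose from E10.5 to E13.5 in females. Its signal was 12.32 and 12.27 at E10.5, 12.56 and 12.30 at E11.5, 12.79 and 12.90 in E12.5 females, and 13.16 and 12.78 in E13.5 females. Both E13.5 female arrays lay above both E10.5 arrays. The rise was 0.68 (SE 0.16, 95% interval 0.32 to 1.03, limma adjusted p = 0.0139), a 1.60-fold higher signal, and passed in 3 of 4 fits that left out 1 array, but not without E13.5 female replicate 1 (0.48). In males the arrays read 12.60 and 12.67 at E12.5 and 12.63 and 12.68 at E13.5, and the change from E10.5 was 0.36 (SE 0.16), which did not pass (limma adjusted p = 0.191). Cyc1, the cytochrome of complex III, was outside the symbols used to choose the genes; it rose by 0.62 (SE 0.14, limma adjusted p = 0.0101) in females, from 12.11 and 12.27 to 12.90 and 12.71, and its call was also lost without E13.5 female replicate 1.

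In complex I, 3 genes passed in the same comparison. Ndufv2, an electron carrier of the NADH-oxidising arm, read 11.65 and 11.44 at E10.5 and 12.29 and 12.20 in E13.5 females, a rise of 0.70 (SE 0.21, limma adjusted p = 0.0419). Its other probe sets differed by 0.83 and 0.80. Ndufa8, an accessory subunit, read 11.25 and 10.79 against 11.63 and 11.61, a rise of 0.60 (SE 0.18, adjusted p = 0.0448). Ndufs3, a core subunit of the matrix arm, read 11.83 and 11.81 against 12.47 and 12.15, a rise of 0.49 (SE 0.15, adjusted p = 0.042). The arrays of the groups did not overlap for any of the 3.

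In complex V, Atp5pb, the b subunit of the stalk that holds the catalytic head still, read 12.76 and 12.78 at E10.5 and 13.47 and 13.18 in E13.5 females. The rise was 0.56 (SE 0.15, limma adjusted p = 0.0266), and its other probe set differed by 0.61. Atp5pb, Ndufs3, Ndufa8 and Ndufv2 each passed in 1 of the 4 fits that left out an array. All 4 calls were lost without E13.5 female replicate 1 and without E10.5 replicate 2, and each also without 1 more array: E10.5 replicate 1 for Atp5pb and Ndufs3, and E13.5 female replicate 2 for Ndufa8 and Ndufv2.

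The 5 rises stand against 17.8% of all genes called in this comparison, 11.4% as rises, so 5 of 90 is below the background share. Without the call rule, 79 of the 90 genes had a higher mean in E13.5 females than at E10.5, with a median change of 0.49, against 0.08 over all genes. Without E10.5 replicate 2 the median was -0.08 and 3 genes rose and 1 fell (10.5% and 6.68% of all genes): Uqcrc1 (0.65), Ndufs1, the largest subunit of the matrix arm (0.87), Ndufaf5 (1.02) and Ndufaf3 (-1.56). Without E10.5 replicate 1 it was 0.95 and 41 rose (13.1% of all genes), 26 of them in complex I. The median change was 0.64 for complex I subunits, 0.50 for complex III, 0.40 for complex II, 0.32 for complex IV and 0.22 for complex V. The largest difference upward was Cox7a1 (1.95, SE 0.89, limma adjusted p = 0.178) and the largest downward Ndufaf3 (-0.90, SE 0.38, adjusted p = 0.145), and neither passed.

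In males the comparison of E13.5 with E10.5 called 1 of the 90 genes, against 12.7% of all genes, 7.44% as rises. Ndufaf6, an assembly factor of complex I, read 8.22 and 8.02 at E10.5, 8.03 and 8.90 in E12.5 males and 9.39 and 9.18 in E13.5 males. The rise from E10.5 was 1.16 (SE 0.32, 95% interval 0.45 to 1.88, limma adjusted p = 0.0381). The call was lost in each of the 4 fits that left out an array, with values from 1.06 to 1.27. The median over the 90 genes was 0.45, and it was -0.11 without E10.5 replicate 2 and 1.07 without replicate 1. Without replicate 2 no gene rose (6.84% of all genes) and Ndufaf3 fell by 1.28 (5.23% fell), and without replicate 1, 45 rose (10.1%). The largest difference upward was Ndufv3, an accessory subunit of complex I (1.67, SE 0.61, limma adjusted p = 0.109), and the largest downward Ndufaf3 (-0.62, SE 0.38, adjusted p = 0.356). The comparisons of females and males share the E10.5 arrays.

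**Figure D4:**
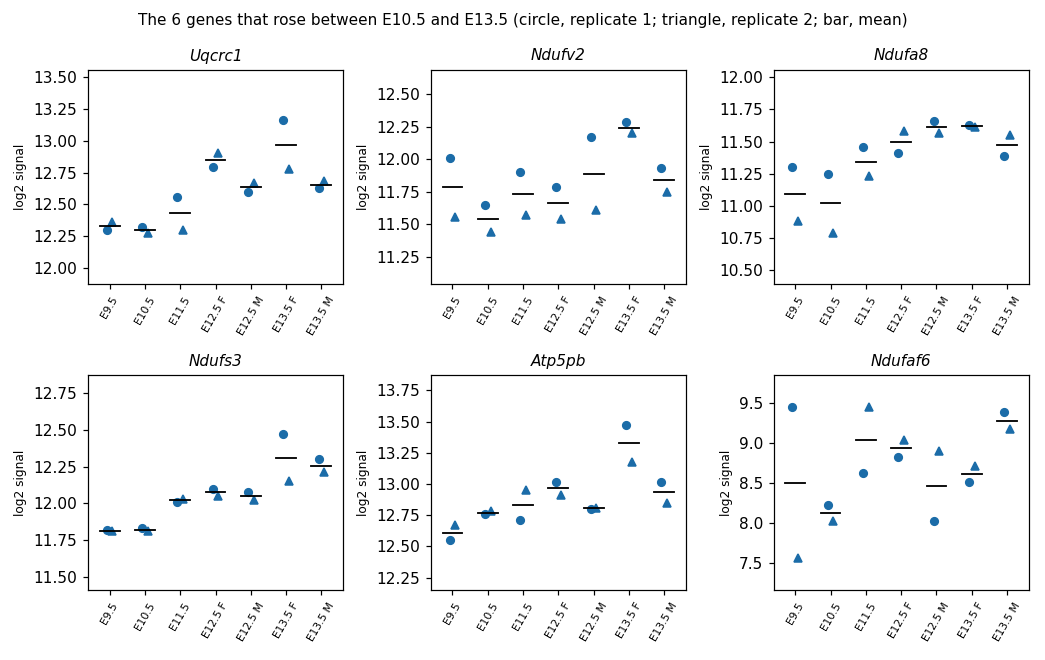
Each panel shows 1 gene, with the log2 signal on every array by group (circles, replicate 1; triangles, replicate 2) and the group mean as a bar. Axes do not start at 0. Uqcrc1, Ndufv2, Ndufa8, Ndufs3 and Atp5pb passed in E13.5 females against E10.5, where all arrays lie above the E10.5 arrays. Ndufaf6 passed in E13.5 males against E10.5.

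No gene of the list passed in the steps between neighbouring ages. For E10.5 against E9.5 the limma fit called 0 of 90 (1.06% of all genes), with 3 higher and 12 lower at an unadjusted p under 0.05 (6.75% and 9.37% of all genes), and the median change was -0.63. Leaving out E10.5 replicate 2 gave a median of -0.01 and no call, and leaving out replicate 1 gave -1.23 with 52 falls and 1 rise, where 7.77% of all genes fell and 2.82% rose. The largest difference downward was Ndufa3, from 11.95 and 10.75 to 10.64 and 7.61, and the largest upward Cox7b2, a form of a complex IV subunit typical of testis, from 6.10 and 4.24 to 6.78 and 5.63. Neither passed (limma adjusted p = 0.263 and 0.406).

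From E10.5 to E11.5, 0 of 90 passed in limma (0.0769% of all genes), with 2 higher and 0 lower at an unadjusted p under 0.05 (3.53% and 3.54% of all genes). The median change was 0.41, but -0.22 without E10.5 replicate 2 and 1.02 without replicate 1, where Atp5g1, a gene for the ATP synthase ring, changed by 1.42. Cox7b2 had the largest difference upward, to 7.96 and 7.27, and both E11.5 arrays lay above both E10.5 arrays. The change was 1.41 (SE 0.48, limma adjusted p = 0.526). Cox4i2 had the largest downward, from 6.29 and 6.53 to 5.93 and 6.12 (limma adjusted p = 0.898).

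From E11.5 to E12.5 none of the 90 passed in females (1.85% of all genes called by limma) or in males (1.0%). At an unadjusted p under 0.05, 1 was higher in females (8.38% of all genes) and none in males (3.91%), and none was lower. The median change was 0.23 in males, against 0.00 over all genes, and 0.17 in females, against 0.05. Ndufb8, an accessory subunit of complex I, had the largest difference upward in males, from 11.02 and 9.89 to 11.25 and 11.30. That change was 0.82 (SE 0.70, limma adjusted p = 0.799), and the mean of all its probe sets changed by -0.04. Cox7a1, a form typical of heart and muscle, had the largest in females, from 7.49 and 6.08 to 7.93 and 8.51, 1.44 (SE 0.89, limma adjusted p = 0.555). The largest differences downward were Ndufaf3, an assembly factor of complex I, in males (-0.74) and Cox7b2 in females (-0.42), and neither passed.

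From E12.5 to E13.5 none passed in females (1.91% of all genes called by limma) or in males (2.1%). At an unadjusted p under 0.05, 3 were higher and 1 lower in females (9.65% and 5.3% of all genes), and 2 higher and none lower in males (9.51% and 4.61%). The medians were -0.09 and -0.14. Ndufs1 had the largest difference upward in females, from 11.62 and 11.36 to 12.22 and 11.98 (0.61, SE 0.26, limma adjusted p = 0.299), and Ndufaf6 in males (0.82, SE 0.32, limma adjusted p = 0.271). The largest differences downward were Ndufaf3 in females (-0.82) and Atp5mpl, a small protein of ATP synthase, in males (-0.80). Ndufaf3 read 10.33 and 9.82 at E9.5, 9.86 and 8.55 at E10.5, 9.49 and 9.46 at E11.5, 9.06 and 9.20 in E12.5 females and 8.0 and 8.61 in E13.5 females. The E13.5 males read 8.27 and 8.89, after 8.72 and 8.74 at E12.5. None of its tested changes passed in the reported fit. Its fall from E10.5 to E13.5 in females passed under median centring (-1.16, SE 0.34, limma adjusted p = 0.0359).

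Males and females did not differ in any of the 90 genes by the test. At E12.5 the limma fit called 0 of 90, against 2.39% of all genes, and 0 at an unadjusted p under 0.05 (4.41% higher and 8.37% lower over all genes), and the median male minus female difference was 0.02. At E13.5 it called 0 of 90, against 10.2% of all genes, with 2 lower in males at an unadjusted p under 0.05 (12.7% of all genes), and the median was -0.00. The change of the sex difference from E12.5 to E13.5 gave 0 of 90, against 0.011% of all genes, with 1 higher at an unadjusted p under 0.05 (3.96% of all genes), Ndufaf6 (1.14, SE 0.45). Its largest negative value among genes above the table median was that of Ndufv2 (-0.63, SE 0.30). The largest sex differences at E13.5 were Uqcrq, a small subunit of complex III, higher in males (0.79, SE 0.65), and Cox7a1, lower in males (-1.10, SE 0.89). At E12.5 they were Ndufa3 (0.50, SE 0.89) and Cox7a1 (-0.78, SE 0.89). With standard errors of this size, differences of this order were not detectable with 2 arrays per group.

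Whether the arrays of 2 groups overlap gives a second reading of each comparison. For E10.5 against E9.5 both arrays were higher for 9 of the 90 genes (18.3% of all genes) and lower for 12 (20.7%). For E11.5 against E10.5 they were higher for 10 (14.5%) and lower for 3 (14.1%). From E11.5 to E12.5 they were higher for 26 in females (26.3%) and for 44 in males (19.9%), and lower for 4 (19.7%) and 1 (19.7%). The adjusted test called none of the 44 genes that were higher in males. From E12.5 to E13.5 they were higher for 8 in females (26.7%) and 12 in males (27.8%), and lower for 8 (21.3%) and 21 (19.6%). For E13.5 against E10.5 they were higher for 23 in females (28.3%) and 22 in males (26.8%), and lower for 1 (20.6%) and 2 (20.8%). Males lay above females for 12 genes at E12.5 (21.1%) and 5 at E13.5 (22.8%), and below for 15 (28.9%) and 10 (26.7%).

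Both X-linked genes of the list are accessory subunits of complex I. Ndufb11 read 12.17 and 12.43 in E12.5 females and 11.90 and 11.81 in E12.5 males, then 12.27 and 12.18 in E13.5 females and 11.28 and 11.44 in E13.5 males. The sexes did not overlap at either age, and the E13.5 difference was -0.86 (SE 0.48, 95% interval -1.92 to 0.19, limma adjusted p = 0.336). Fitted on the 4 E13.5 arrays alone it passed (adjusted p = 0.04). Ndufa1 read 11.19 and 12.52 in E13.5 females and 10.46 and 11.72 in males, which overlap (-0.76, SE 0.76, limma adjusted p = 0.652).

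The median of the 4 complex II genes lay between 11.455 and 12.165 over the 14 arrays. Sdha, its flavoprotein, read from 11.75 at E9.5 replicate 1 to 12.85 at E13.5 female replicate 1, and 12.07 and 12.52 at E10.5. Sdhb, its iron-sulphur protein, read 12.20 and 12.15 at E10.5, 12.86 and 12.47 in E13.5 females and 12.63 and 12.57 in E13.5 males. Its change in females was 0.49 (SE 0.16, limma adjusted p = 0.0561), and that in males 0.42 (SE 0.16, adjusted p = 0.114); neither passed, although the arrays did not overlap in either case. The change in females did pass with a floor at the 25th percentile, with quantile normalization, among genes above the table median only and without E13.5 female replicate 2 (adjusted p from 0.0217 to 0.0465). The membrane anchors Sdhc (10.62 to 11.44) and Sdhd (10.66 to 11.50) passed in no comparison in the reported fit.

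Several subunits of complexes I, IV and V exist in tissue-restricted forms. Cox6b2, a testis form, read 11.19 and 10.04 at E9.5 and 10.52 and 8.38 at E10.5, and in E13.5 9.40 and 10.73 in females and 9.91 and 10.77 in males; its common form Cox6b1 spanned 10.82 to 13.13. Cox8c, also a testis form, was flat, from 8.07 to 8.57, beside Cox8a from 10.73 to 12.69. Cox7b2 lay between 4.24 and 7.96, and Cox7b was not analysed here. Cox7a1 ran from 4.62 on E10.5 replicate 2 to 9.01 on E13.5 female replicate 2, and Cox7a2 from 11.45 to 13.32. Cox4i2 stayed between 5.93 and 6.65 and Cox4i1 between 12.94 and 13.45, and Ndufa4l2 between 4.33 and 5.88 beside Ndufa4 from 10.18 to 12.27; both carry a complex I symbol, although Ndufa4 is now placed in complex IV. Atp5g1, Atp5g2 and Atp5g3, which encode the same mature ring protein of ATP synthase, differed in the E10.5 pair, at 12.64 and 11.16, 12.70 and 11.48, and 13.25 and 13.03. No restricted form passed in any comparison in the reported fit. Their changes depended on the arrays used: that of Cox7a1 in E13.5 females against E10.5 ran from 0.55 to 3.36 when 1 array was left out.

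Around the complexes, the strongest changes were in partners typical of germ cells. Slc25a31, the ADP and ATP carrier of testis, read 7.15 and 7.14 at E9.5, 9.01 and 9.62 at E10.5, 10.55 and 10.48 at E11.5, 11.14 and 11.20 in E12.5 females, 10.96 and 10.98 in E12.5 males, and at E13.5 12.44 and 12.11 in females against 12.02 and 11.56 in males. Its arrays did not overlap from any age to the next within a sex. It rose by 2.17 (SE 0.22, limma adjusted p = 0.00121) from E9.5 to E10.5, and from E10.5 by 2.96 (SE 0.23, adjusted p = 2.56e-05) in females and 2.48 (SE 0.23, adjusted p = 7.59e-05) in males, each kept in all 4 fits that left out an array. The step from E12.5 to E13.5 in females, 1.10 (adjusted p = 0.0414), was kept in none.

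Cyct, the cytochrome c of testis, read 8.43 and 7.46 at E9.5, 9.22 and 8.19 at E10.5, 10.70 and 9.91 at E11.5, 11.15 and 11.11 in E12.5 females, 10.88 and 10.38 in E12.5 males, and at E13.5 10.57 and 11.39 in females against 10.44 and 10.39 in males. It rose by 2.28 (SE 0.38, limma adjusted p = 0.00203) from E10.5 to E13.5 in females, kept in all 4 fits that left out an array, and by 1.71 (SE 0.38, adjusted p = 0.0139) in males, lost in 3 of 4: without either E13.5 male array and without E10.5 replicate 2. Cycs, the cytochrome c of other tissues, read from 12.50 to 13.38 and passed in no comparison in the reported fit.

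**Figure D5:**
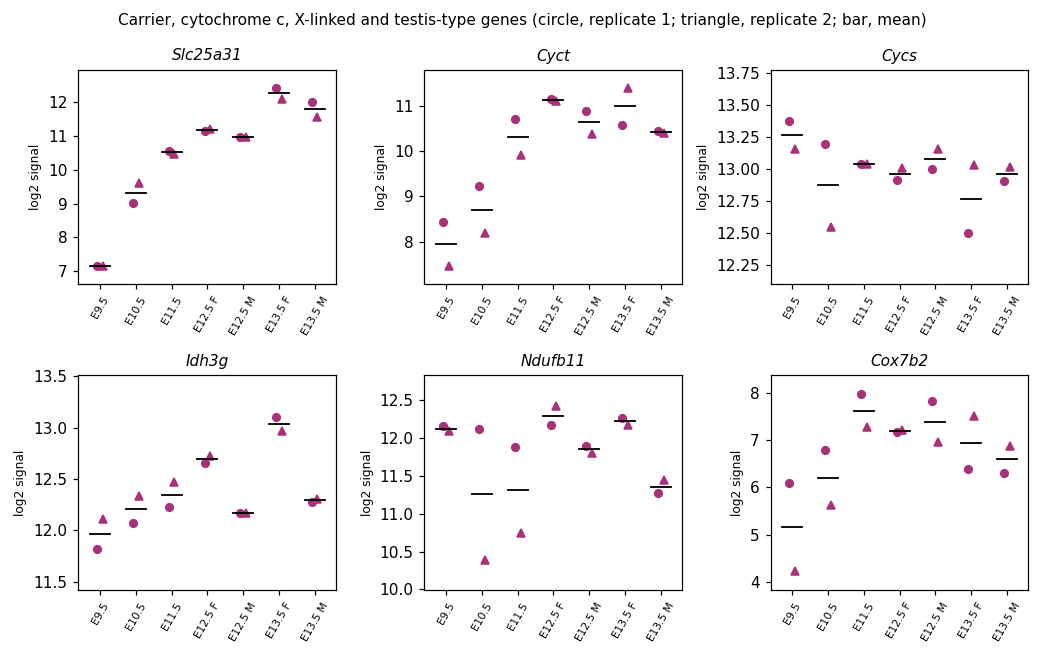
Each panel shows 1 gene, with the log2 signal on every array by group (circles, replicate 1; triangles, replicate 2) and the group mean as a bar. Axes do not start at 0. Slc25a31 climbs from about 7 at E9.5 to above 11 in every E13.5 array, and Cyct from below 9 at E9.5 to above 10 from E12.5, while Cycs stays between 12.50 and 13.38. X-linked Idh3g and Ndufb11 read lower in males than in females on all E12.5 and E13.5 arrays. Cox7b2 does not exceed 8.

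Of all genes 11.4% rose and 6.4% fell from E10.5 to E13.5 in females, 7.44% and 5.27% in males, and 4.18% were higher and 5.99% lower in E13.5 males than females; the counts of the lists that follow stand beside these shares. The tricarboxylic acid cycle list had 2 of 15 genes that rose from E10.5 to E13.5 in females: Cs, citrate synthase (0.76, SE 0.16, limma adjusted p = 0.00687), whose call was lost without E13.5 female replicate 1, and Idh3g, a subunit of the NAD-linked isocitrate dehydrogenase (0.84, SE 0.15, adjusted p = 0.00299). In males none of 15 passed. X-linked Idh3g was lower in males at E13.5 (12.28 and 12.31 against 13.11 and 12.97, a difference of -0.74, adjusted p = 0.00971), and so was autosomal Fh1, fumarase (-0.79, adjusted p = 0.0478). Each of these sex calls was lost in 3 of 4 fits that left out an array, without either male array and without female replicate 1.

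Among 37 assembly factors outside the symbols used, Coa6 (1.01) and Ttc19 (0.94) rose and Coa5 fell by 1.15 in females from E10.5 to E13.5; Coa5 and Coa6 serve complex IV and Ttc19 complex III. Sco2, which delivers copper to complex IV, rose by 1.0 in males, and was 0.92 higher in males than in females at E13.5. Coa6 and both Sco2 calls were lost without 2 or more of their arrays in turn, and Ttc19 without 3. Of 14 regulators of mitochondrial biogenesis, 4 differed between the sexes at E13.5: Yy1, a transcription factor (0.90), Tfb2m (1.28) and Polrmt (0.73), both of mitochondrial transcription, were higher in males, and Polg, the mitochondrial DNA polymerase, was lower (-0.80). All 4 had limma adjusted p-values from 0.0134 to 0.0236, and each call was lost in 2 or more of the 4 fits that left out an array. Tfb2m also fell by 1.27 in females from E10.5, a call lost without E10.5 replicate 2 and without E13.5 female replicate 2. Of 76 mitochondrial ribosomal protein genes, 4 rose and 9 fell in females from E10.5 to E13.5, 4 rose in males, and 7 were higher in E13.5 males than females, led by Mrps34 (1.26), Mrpl19 (1.16) and Mrpl50 (1.12). Of these sex calls Mrpl19 was kept in all 4 fits that left out an array, Mrpl50 was lost without male replicate 1, and Mrps34 was kept only without male replicate 1.

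Promoters are shown for the genes the results turn on: Uqcrc1, which kept its rise in most fits, Atp5k, with the widest gap in the E10.5 pair, and the carrier and cytochrome c of testis. The sequences are from RefSeq on GRCm38.p6, each 250 bases before to 50 after the start of the gene, 5' to 3' on its own strand: chr9:108936398-108936697 (plus) for Uqcrc1, chr5:108434350-108434649 (minus) for Atp5k, chr3:40708621-40708920 (plus) for Slc25a31 and chr2:76360404-76360703 (minus) for Cyct. Capitals mark any of 3 short motifs on either strand: TGCGCA, part of the site of NRF1, CCGGAAG, the core of ETS factors, and AAGATGG, the core of YY1; these factors are known regulators of respiratory genes.
Uqcrc1: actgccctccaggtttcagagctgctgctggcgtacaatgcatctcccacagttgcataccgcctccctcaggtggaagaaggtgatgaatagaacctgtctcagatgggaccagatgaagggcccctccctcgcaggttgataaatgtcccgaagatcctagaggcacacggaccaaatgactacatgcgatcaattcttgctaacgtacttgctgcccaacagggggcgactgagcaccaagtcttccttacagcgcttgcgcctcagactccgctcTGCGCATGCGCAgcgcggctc
Atp5k: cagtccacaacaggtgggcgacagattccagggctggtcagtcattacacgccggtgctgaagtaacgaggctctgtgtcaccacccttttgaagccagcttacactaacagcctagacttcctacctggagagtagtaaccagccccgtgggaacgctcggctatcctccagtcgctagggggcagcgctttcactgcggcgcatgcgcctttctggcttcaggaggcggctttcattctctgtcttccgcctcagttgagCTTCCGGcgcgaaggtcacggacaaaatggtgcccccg
Slc25a31: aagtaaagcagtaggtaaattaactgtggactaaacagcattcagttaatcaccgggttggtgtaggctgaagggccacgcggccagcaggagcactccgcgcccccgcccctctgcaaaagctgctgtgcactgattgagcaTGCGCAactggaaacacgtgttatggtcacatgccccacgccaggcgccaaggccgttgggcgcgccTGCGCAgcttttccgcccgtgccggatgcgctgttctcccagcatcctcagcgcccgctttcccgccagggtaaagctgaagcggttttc
Cyct: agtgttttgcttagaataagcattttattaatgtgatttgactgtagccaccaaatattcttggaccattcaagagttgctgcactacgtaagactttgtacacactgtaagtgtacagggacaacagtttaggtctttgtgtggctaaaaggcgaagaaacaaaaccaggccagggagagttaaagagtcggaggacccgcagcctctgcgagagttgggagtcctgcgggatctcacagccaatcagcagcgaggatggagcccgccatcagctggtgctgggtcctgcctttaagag

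In these windows TGCGCA occurs 2 times for Uqcrc1, end to end, and 2 times for Slc25a31, CCGGAAG 1 time for Atp5k, on the other strand, and none of the 3 for Cyct. A promoter was matched for 74 of the 90 genes. TGCGCA was in 18 of the 74 (24.3%), against 8.06% of all 27025 promoters and 11.7% of those of tested genes. CCGGAAG was in 18 (24.3%, against 9.12% and 13.8%), and AAGATGG in 10 (13.5%, against 6.48% and 6.63%). At least 1 of them was in 38 (51.4%, against 21.0% and 28.1%). The promoters of the list held a median of 20 CG dinucleotides, against 7 over all promoters, and TGCGCA and CCGGAAG contain CG. A match is a run of letters and no measure of binding. Only these exact letters were searched, so other forms of the sites are not counted.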

How the data were processed

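Affymetrix signals of 14 arrays were deposited as log2 values. Per the series' design text, the authors normalized the E9.5 arrays anew with the others. Values between 0 and 14.04 fit a log2 scale. What the sources used here do not state is the software, the background correction and the summarisation. From 45101 probe sets, the 34958 with a single symbol gave 18194 genes, each read from its probe set of highest mean, with no detection filter. Linear models with 1 mean per group and an intensity trend were fitted by limma 3.58.1 (R 4.3.3) over 12 arrays (6 residual degrees of freedom) or, for E10.5 against E9.5, all 14 (7). Tests were two-sided, with Benjamini-Hochberg adjustment over all genes of a comparison and a threshold of 0.05. The fit was tested on simulated data.

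The genes and lists were chosen with earlier results of these data known. Named genes are those that passed, the largest rise and fall of each comparison above the table median, the 5 highest and lowest means, tissue-restricted forms with their partners, and complex II. Genes of other lists are named where they passed; for the mitochondrial ribosome the largest sex differences are named. Ndufs7, Ndufv1, Uqcr11, Atp5k and the X-linked genes were named after their values were seen. Replicate numbers were not treated as pairs. Over all genes, dim ones included, the correlation of deviations in 15 pairs of groups ran from -0.19 to 0.28, with 2 over 0.1. Over the 87 genes above the table median it ran from -0.90 (E10.5 with E13.5 females) to 0.91 (E13.5 females with males). The values over all genes therefore do not settle whether the list was paired. The alternatives are given in the closing section.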

Additional observations from a re-analysis of the deposited data

How the results depend on the processing

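The count of genes called in E13.5 females against E10.5, 5 as reported, was 1 under median centring (Ndufaf3, a fall) and 2 with the mean of all probe sets. It was 0 without the intensity trend and 0 with the compared arrays alone. The shares of all genes called under these other settings are not given here, so the counts have no background beside them. Median centring moved the median change of all genes in that comparison from 0.08 to -0.18. In E13.5 males against E10.5 the 1 call became 0 under quantile normalization, median centring, no intensity trend and the compared arrays alone; with the floor it stayed 1 but was Ndufs3 (0.44) in place of Ndufaf6. In females the floor, quantile normalization and leaving out dim genes added Sdhb, and the floor and leaving out dim genes Cox7a2l. The compared arrays alone gave 1 call between the sexes at E13.5 (Ndufb11). The median sex difference at E12.5 was 0.15 under median centring. Of the named genes, Ndufb8 reversed in E12.5 males against E11.5 (-0.04, mean of all probe sets) and Ndufaf3 in E13.5 males against E10.5 (0.03 without E10.5 replicate 1 and -1.28 without replicate 2); the cause of these changes was not tested.

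Leaving out 1 array gave 0 to 53 called genes and medians of -1.23 to -0.01 for E10.5 against E9.5, 0 to 1 and -0.22 to 1.02 for E11.5 against E10.5, 0 to 41 and -0.08 to 0.95 for E13.5 females against E10.5, and 0 to 45 and -0.11 to 1.07 for E13.5 males against E10.5. It gave 0 calls in the other 7 comparisons, with medians of 0.08 to 0.37 and 0.08 to 0.42 for E12.5 females and males against E11.5, -0.35 to 0.05 in each sex for E13.5 against E12.5, -0.09 to 0.10 and -0.13 to 0.21 between the sexes at E12.5 and E13.5, and -0.20 to 0.20 for the change of that difference. With the replicate number as a block, 5 and 1 genes were called in E13.5 females and males against E10.5. In every other comparison 0 were called, and no call on the list changed. The share of all genes called with the block is not given here either.

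The other settings tried were a floor at the 25th percentile and leaving out dim genes. Over the settings that keep every array, 8 of the 16 counts in the 2 comparisons with a call moved by over 1.5 times; the 72 counts in the other 9 comparisons started from 0 and show nothing about stability. Of 88 medians 87 moved by less than the replicate spread. In comparisons with E10.5 that spread includes the gap of the E10.5 pair, whose list medians were 11.89 and 10.625. There the count shows little about stability. With 2 arrays per group and a spread shared over the groups of a fit, the median standard error over the list was 0.38. A difference as large as that of Ndufv3 (1.67, SE 0.61) did not pass.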

Other observations

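Probe sets that list several symbols were left out of the list, and 8 of the 10 that include one of its genes lay above the table median. For the family of Ndufb4, Ndufb4b and Ndufb4c, the 2 probe sets read 11.29 and 8.45, and 11.26 and 8.53, on the E10.5 arrays, differences of -2.84 and -2.73. Those of Ndufs5 with its pseudogene (-1.97), Ndufs6 with Ndufs6b (-1.96), Ndufab1 with its pseudogene (-1.18) and Ndufb2 with Adck2 (-2.42) were lower on replicate 2 as well. Of the probe sets of Ndufa11 with Ndufa11b, 1 was lower (-1.81) and the other higher (0.46).

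Of the 46 genes with several probe sets above the table median, all probe sets of 40 had the same sign in the E10.5 pair. Atp5k differed by -3.38 on the probe set used and by -3.49 and -3.24 on the others. Ndufa3 differed by -3.03 on the probe set used and by -3.12 to -0.42 on the others, Cox8a by -1.80 and by -1.83 to -0.49, and Atp5a1 by 0.07 and by -0.01 to 2.13. The highest of the 14 values fell on E9.5 replicate 1 for 32 of the 90 genes (35.6%), against 17.7% of all genes, and on E13.5 female replicate 1 for 16 (17.8%), against 15.9%.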
